A study of Rattus norvegicus with 14 samples.

Results

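Kruppel-like factors, zinc finger transcription factors that bind GC-rich and CACCC sequences, were followed here in the rat aortic wall through 7 genes: Klf2, Klf4, Klf5, Klf6, Klf9, Klf10 and Klf15. The genes were chosen by name, as regulators of the smooth muscle and endothelial phenotype, and not by their values. They had 20 probe sets among the 31042 tested, and 7 genes of the 14217 named on the array. Where a gene had several probe sets, the one brightest on average across the 14 arrays stands for it. Thoracic aortas came from Sprague-Dawley rats in which chronic renal failure was induced with adenine (A-CRF, 8 samples) and from control rats of the same strain (Control, 6 samples), 1 array per sample. Adenine forms crystals in the kidney tubules and so injures the kidney. The labels name no age, sex, adenine dose, duration, control diet or pooling of animals. They also do not tie samples to separate animals, and p-values therefore reflect only how far these samples scatter, part of which may be technical.

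Members of the family share a C-terminal DNA-binding domain and differ in the rest of the protein, and many are encoded by short-lived transcripts that respond quickly to stimuli. In endothelium, laminar flow raises Klf2 and Klf4 through the kinase ERK5 and MEF2 factors, and both favour an anticoagulant, anti-inflammatory state. In smooth muscle, Klf4 represses contractile genes and Klf5 accompanies the synthetic, proliferating state. Klf6 and Klf10 are induced by injury and by TGF-beta, while Klf9 and Klf15 are targets of the glucocorticoid receptor and follow the circadian clock in several tissues.

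RefSeq promoter windows (GRCr8, 250 bases before to 50 after the gene start) were matched for 5 of the 7 genes, Klf4, Klf5, Klf6, Klf9 and Klf15. Those of Klf9 and Klf15 are shown because these genes had their highest A-CRF values on the same arrays, and that of Klf6 because it holds the same clock motif as Klf15. Capitals mark the E-box CACGTG, the motif bound by the clock pair Clock and Bmal1, and the CACCC box, CACCC or its reverse complement GGGTG. Klf9 lies on chromosome 1 (chr1:230126396-230126695, plus strand), Klf15 on chromosome 4 (chr4:124522765-124523064, plus strand) and Klf6 on chromosome 17 (chr17:69458429-69458728, minus strand).
Klf9: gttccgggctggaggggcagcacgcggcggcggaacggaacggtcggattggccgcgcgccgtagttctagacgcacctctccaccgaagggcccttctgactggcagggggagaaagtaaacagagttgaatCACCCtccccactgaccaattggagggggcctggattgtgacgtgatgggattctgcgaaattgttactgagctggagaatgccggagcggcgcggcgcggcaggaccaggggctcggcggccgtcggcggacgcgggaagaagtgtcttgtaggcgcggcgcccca
Klf15: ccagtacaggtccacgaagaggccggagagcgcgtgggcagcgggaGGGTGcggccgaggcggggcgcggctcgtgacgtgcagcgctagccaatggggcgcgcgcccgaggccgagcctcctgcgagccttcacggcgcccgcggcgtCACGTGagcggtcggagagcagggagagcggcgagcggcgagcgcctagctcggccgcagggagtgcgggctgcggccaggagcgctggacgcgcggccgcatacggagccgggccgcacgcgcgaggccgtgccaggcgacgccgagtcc
Klf6: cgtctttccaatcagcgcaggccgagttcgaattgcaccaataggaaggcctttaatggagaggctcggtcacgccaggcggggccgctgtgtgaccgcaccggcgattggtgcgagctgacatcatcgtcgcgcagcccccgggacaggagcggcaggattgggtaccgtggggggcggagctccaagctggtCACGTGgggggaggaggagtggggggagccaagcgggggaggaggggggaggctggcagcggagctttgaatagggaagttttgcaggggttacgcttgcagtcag
The E-box starts 101 bases before the gene start in Klf15 and 56 bases before it in Klf6. It was found in 2 of the 5 windows, against 6.42% of all 33469 windows of 300 bases. The CACCC box was found in 3 of 5, those of Klf5, Klf9 and Klf15, against 54.9% of all windows. Both strands were searched, and the matches in these windows did not overlap one another. The D-box TTATGNAA, bound by Dbp, Tef and Hlf, was in 0 of 5 windows (3.66% of all), and TGTTCT, the core of the glucocorticoid receptor site, in 0 of 5 (20.7% of all). A match is a run of letters and not a measured binding site.

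Values are the authors' deposited probe set summaries and were read as log2 units, a base inferred from their range of 4.82 to 12.64. All 4 smooth muscle markers (Acta2, Myh11, Tagln, Cnn1), all 9 measured endothelial markers and all 5 measured fibroblast markers had control means more than 1 log2 unit over the table's minimum. T cell markers did so for 2 of 5. Of the other marker lists, 0 of 5 fibroblast, 0 of 5 T cell, 0 of 7 white adipocyte, 0 of 3 brown adipocyte, 0 of 1 Schwann cell and 0 of 2 erythroid markers passed in limma, where 2.05% of all probe sets did. Among these lists 2 markers had an unadjusted p under 0.05 in limma, both erythroid, against 14.4% of all probe sets. In skeletal muscle 1 of 4 markers fell, against 0.789% of all probe sets lower. The macrophage marker mean was 7.27 to 7.69 on the A-CRF arrays and 6.89 to 7.08 on the control arrays. Of its 13 markers 9 were higher, against 1.26% of all probe sets. The brown adipocyte mean ran from 6.18 to 8.04 in A-CRF and 6.82 to 8.19 in Control. The GAPDH 3' minus 5' difference, a sign of transcript shortening, was 1.58 to 1.90 on A-CRF 1, A-CRF 4 and Control 1 and at most 0.55 elsewhere.

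None of the 7 factors passed in A-CRF against Control (limma, adjusted p of 0.05 over all probe sets), where 2.05% of all probe sets passed. At an unadjusted p of 0.05 the only member was Klf10, 1 of 7 against 14.4% of all probe sets, and it was again the only one by an exact permutation test. The changes were positive for 4 members and negative for 3, with a median of 0.08 log2 units against -0.0020 over all probe sets. In all 7 genes the A-CRF and control ranges overlapped, as they did in all but 1.38% of all probe sets. Spread between samples of a group was wide for 6 of the 7. Their within-group standard deviations stood above those of 86.3% (Klf4) to 98.8% (Klf6) of the 15521 probe sets of the brighter part of the table, those with a mean above the median. That median was 5.63, within 1 log2 unit of the table's minimum, so the brighter part includes dim probe sets. No comparison with probe sets as bright as the members was made. A bulk aorta cannot separate fewer cells of a type from less RNA per cell.

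**Figure D1:**
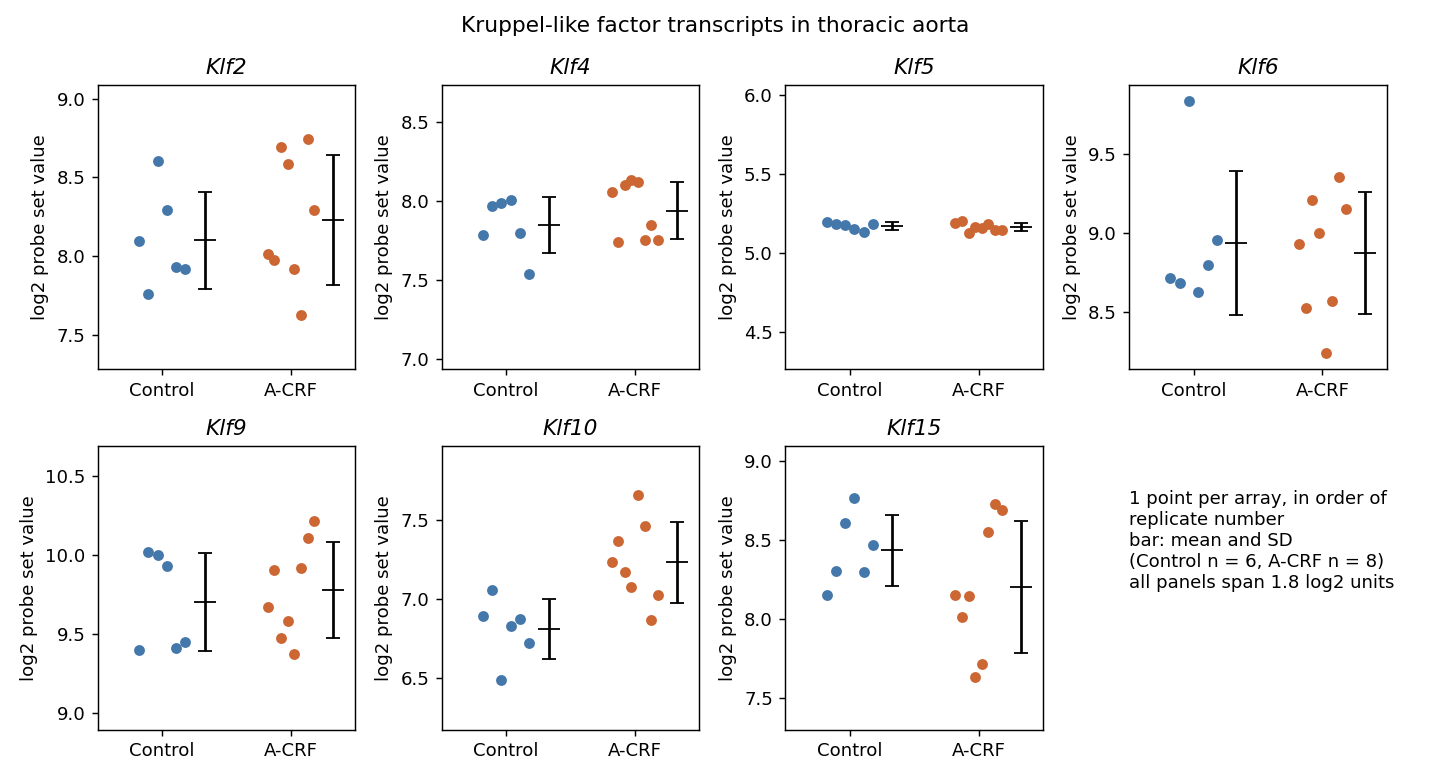
Log2 probe set values of the 7 Kruppel-like factors in each panel, 1 point per array, for Control (n = 6) and A-CRF (n = 8), with the mean and SD beside each group. Klf10 lies higher in A-CRF, with 6 of 8 arrays above every control array. The ranges of all 7 genes overlap, with 4 of 8 A-CRF arrays above every control for Klf4 and 5 of 8 below for Klf15.

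Klf2, the flow-induced factor of endothelium, had A-CRF values with a lowest of 7.63, a median of 8.15 and a highest of 8.74 log2 units, against 7.76, 8.01 and 8.60 in Control. High values were seen in both groups, on A-CRF 3, 4 and 7 and on Control 3, and the ranges overlapped. The change was 0.13 ± 0.19 log2 units (SE, 95% interval -0.27 to 0.53, limma adjusted p = 0.86). That interval corresponds to 0.83 to 1.44 times the control level. With the immediate early gene mean as a covariate, an alternative added after the data were seen, it was -0.18 ± 0.12 (limma adjusted p = 0.59). Klf2 had 5 probe sets, 4 with the same sign. Over the 14 arrays the brightest one followed the third brightest (r = 0.97 of deviations from the group means) but not the second brightest (r = 0.13), so the sets do not report one pattern.

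Klf4, which acts in endothelium and in smooth muscle, had a single probe set. Its lowest, median and highest values were 7.74, 7.96 and 8.14 in A-CRF and 7.54, 7.88 and 8.01 in Control. The A-CRF arrays fell into separate sets, with A-CRF 1, 3, 4 and 5 at 8.06 to 8.14, above all controls, and A-CRF 2, 6, 7 and 8 at 7.74 to 7.85, inside the control range. The group difference was 0.09 ± 0.09 (SE, 95% interval -0.10 to 0.29, limma adjusted p = 0.76).

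Upstream of these factors, the list of ERK5, MEF2 and CCM-complex regulators had 13 measured genes, of which 0 passed (median 0.01). An unadjusted p under 0.05 in limma was seen for 1 of the 13, against 14.4% of all probe sets. The largest changes were those of the MEF2 transcription factors Mef2a, 0.14 ± 0.05 (SE, limma adjusted p = 0.14), and Mef2c, -0.10 ± 0.10. Of 6 endothelial genes that Klf2 or Klf4 is known to induce, 0 passed and 0 had an unadjusted p under 0.05 in limma. The change was negative for 5 of the 6 (median -0.10), where it was positive for 47.3% of all probe sets. Control means of only 2 of these 6 genes were more than 1 log2 unit over the table's minimum. Nos3, the endothelial nitric oxide synthase, averaged 5.54 ± 0.16 on the 8 A-CRF arrays and 5.68 ± 0.12 on the 6 control arrays (SD), close to the lowest signal. Thbd, the anticoagulant thrombomodulin, changed by -0.23 ± 0.12 (SE, limma adjusted p = 0.40), with 5 of 8 A-CRF arrays below every control. Ptgds, a prostaglandin D synthase, changed by -0.28 ± 0.17 (limma adjusted p = 0.54) and by -0.06 without Control 3, where it was 6.63 against 5.26 to 5.37 on the other control arrays.

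Of 11 measured endothelial genes that Klf2 or Klf4 is known to repress, 1 rose, against 1.26% of all probe sets higher, and 0 fell. The change was positive for 10 of the 11 (median 0.15), against 47.3% of all probe sets. Control means of 7 of the 11 were more than 1 log2 unit over the table's minimum. The riser was Vcam1, a leukocyte adhesion molecule, at 9.43 to 10.24 in A-CRF and 8.85 to 9.53 in Control (0.86 ± 0.13, SE, limma adjusted p = 0.0073). It passed in each fit without 1 array (limma, highest adjusted p = 0.021). The mean of these 11 genes was higher on all 8 A-CRF arrays (6.57 to 6.92) than on any control (6.46 to 6.56). Beside this, the mean of the 9 endothelial markers was 6.55 to 6.81 in A-CRF and 6.50 to 6.66 in Control. Of the 9, 0 passed and 2 had an unadjusted p under 0.05 in limma, against 14.4% of all probe sets. The macrophage markers given above also moved with the group, and their part in these values was not tested.

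Klf5, a factor of the synthetic smooth muscle state, gave almost no signal. Its representative ran from 5.13 to 5.21 in A-CRF with a median of 5.16, and from 5.13 to 5.20 in Control with a median of 5.18. Those values lie 0.35 log2 units above the lowest in the table on average. The change was -0.0071 ± 0.016 (SE, limma adjusted p = 0.93). All 4 probe sets were similarly dim, 2 with each sign. Both positive sets had an unadjusted p under 0.05, with changes of 0.062 ± 0.028 (limma adjusted p = 0.31) and 0.051 ± 0.023 (limma adjusted p = 0.33), and they did not follow the representative (r = -0.03 and -0.13). No difference in Klf5 passed at this signal.

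Smooth muscle differentiation genes lie downstream of Klf4 and Klf5. Of 13 measured, 2 fell, against 0.789% of all probe sets lower, and 0 rose. The change was negative for 11 of the 13 (median -0.16), where it was positive for 47.3% of all probe sets. Actg2, smooth muscle gamma-actin, was 8.71 to 9.35 in A-CRF and 9.44 to 10.67 in Control, with no overlap, as in 1.38% of all probe sets (-0.82 ± 0.17, SE, limma adjusted p = 0.028). Myh11, the smooth muscle myosin heavy chain, averaged 11.58 ± 0.14 on the A-CRF arrays (SD, n = 8) against 11.87 ± 0.12 on the control arrays (SD, n = 6), a change of -0.29 (limma adjusted p = 0.043). Myh11 had 2 probe sets, and the brighter matches several transcripts. With such sets left out its change was -0.24 ± 0.15 (SE, limma adjusted p = 0.53). It also missed the threshold with quantile normalization, trend and robust eBayes, and the mean of probe sets (limma adjusted p = 0.055, 0.057 and 0.079). Acta2 changed by -0.08 ± 0.12 and Myocd, the cofactor of SRF that drives contractile genes, by -0.16 ± 0.20 (SE). Tagln changed by -0.26 ± 0.07 (SE, limma adjusted p = 0.059), with all 8 A-CRF arrays below every control. Cnn1 changed by -0.42 ± 0.13 (limma adjusted p = 0.13) and Cald1 by 0.16 ± 0.07 (limma adjusted p = 0.33). Of the 13 genes 5 had an unadjusted p under 0.05 in limma, against 14.4% of all probe sets. Actg2 missed the threshold without Control 2 or 3 or A-CRF 3, 5 or 8 (limma, highest adjusted p = 0.058), and Myh11 without any array but Control 3 or A-CRF 4, 7 or 8 (limma, highest adjusted p = 0.093). With the clock gene, endothelial marker or immediate early covariate 0 of the 13 genes passed, while the change of Actg2 was -0.96, -0.77 and -0.82 and that of Myh11 -0.27, -0.27 and -0.25. The smooth muscle marker mean, taken over Acta2, Myh11, Tagln and Cnn1, was 10.66 to 11.09 in A-CRF and 11.02 to 11.53 in Control. It was below every control on 7 of 8 A-CRF arrays. Its genes are also in the list of 13, so the mean is not a separate measure. The part of smooth muscle cell number in these values was not tested.

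Of 9 measured genes linked to Klf5 in synthetic smooth muscle, 3 rose, against 1.26% of all probe sets higher, 0 fell and 6 did not pass (median 0.07). These were Egr1, an immediate early factor (1.58 ± 0.36, SE, limma adjusted p = 0.037), Cdkn1a, the cyclin-dependent kinase inhibitor p21 (0.999 ± 0.209), and Ccnd1, cyclin D1 (0.82 ± 0.15). Cdkn1a restrains and Ccnd1 drives entry into the cell cycle, so the risers do not share a direction of action. Egr1 kept its call without A-CRF 1, 2, 3, 6 or 8 and missed the threshold without any of the other arrays (limma, highest adjusted p = 0.083). Cdkn1a missed it without A-CRF 3, A-CRF 5 or any control but Control 1 (limma, highest adjusted p = 0.065), and Ccnd1 missed it in none of these fits. With each of the same 3 covariates 0 of the 9 genes passed, with changes of 0.79, 0.75 and 0.65 for Ccnd1, 0.71, 0.82 and 0.83 for Cdkn1a and 1.60, 1.28 and 0.96 for Egr1. Egr1 is itself 1 of the genes in the immediate early mean.

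**Figure D2:**
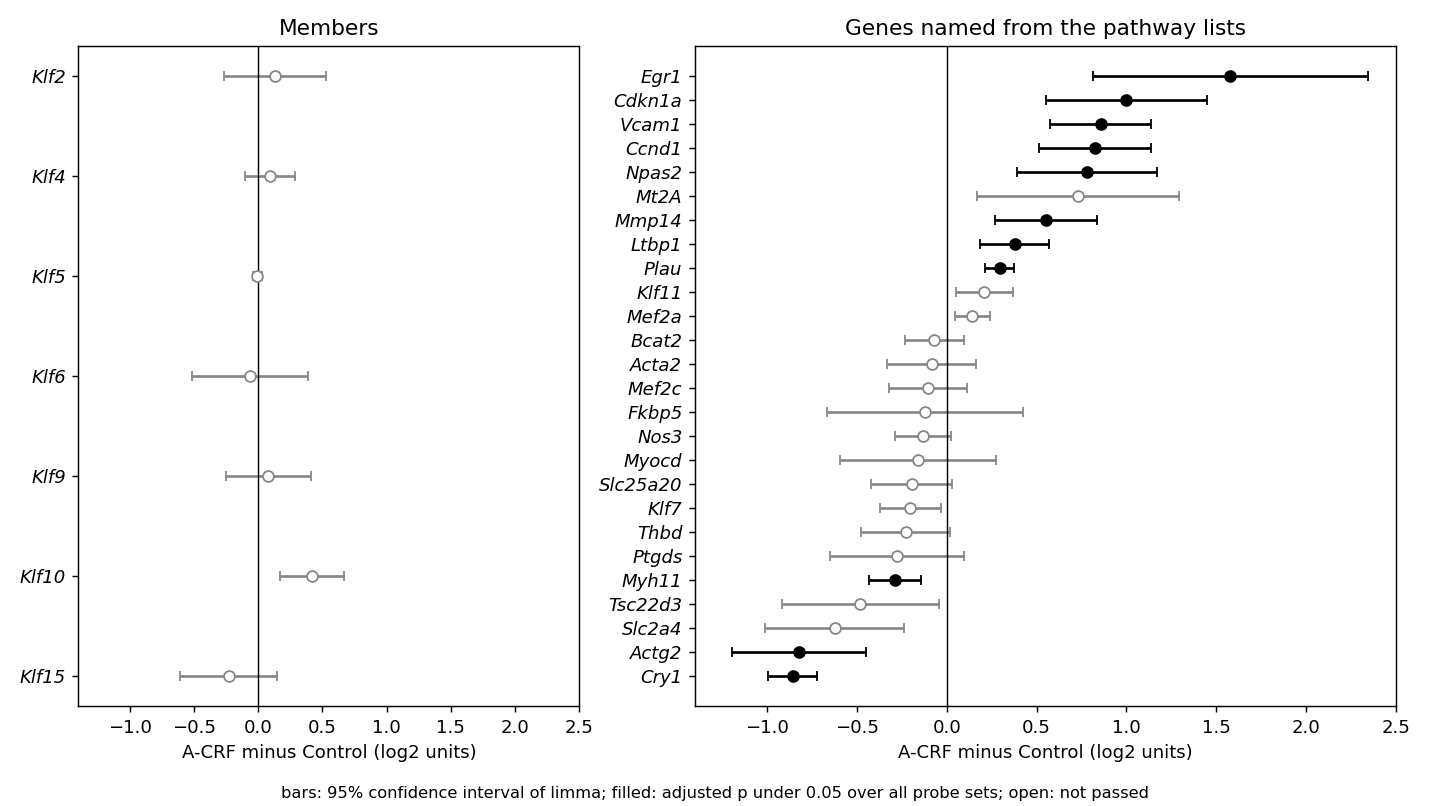
Change in A-CRF minus Control in log2 units (limma, 95% intervals) for the 7 members on the left and for the other genes named from the lists on the right, with filled points for adjusted p under 0.05. No member is filled and the interval of Klf10 alone among the members excludes 0, while 8 list genes rose and 3 fell.

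Klf10, the TGF-beta-inducible early gene, had a single probe set and the largest difference among the 7. Its values were 6.87 at the lowest, 7.20 at the median and 7.66 at the highest in A-CRF, against 6.49, 6.85 and 7.06 in Control. All 8 A-CRF arrays lay above the control median and 6 above every control, the others being A-CRF 7 at 6.87 and A-CRF 8 at 7.02. The difference was 0.42 ± 0.12 log2 units (SE), a 1.34-fold higher level (95% interval 1.13 to 1.59), with an unadjusted p of 0.0027, limma adjusted p = 0.079 and an exact permutation p of 0.0063. Of all probe sets 3.45% had a smaller p. It passed without A-CRF 7 (0.47, limma adjusted p = 0.041) and with array weights (0.48, limma adjusted p = 0.029). With the immediate early covariate it was 0.56 (limma adjusted p = 0.046), and with the clock gene score as a covariate 0.30 ± 0.13 (limma adjusted p = 0.39).

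Klf6, an injury-induced factor that regulates TGF-beta pathway genes, had values of 8.24 at the lowest, 8.97 at the median and 9.35 at the highest in A-CRF and 8.62, 8.76 and 9.84 in Control. The highest value of all 14 arrays was that of Control 3, with the other controls at 8.62 to 8.96. The change was -0.06 ± 0.21 (SE, 95% interval -0.51 to 0.39, limma adjusted p = 0.96), and without Control 3 it was 0.12 ± 0.17. Its 3 probe sets had the same sign and followed one another over the arrays (r = 0.96 and 0.90 with the brightest, over deviations from the group means).

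Among 14 measured TGF-beta genes linked to Klf6 or Klf10, 3 rose, against 1.26% of all probe sets higher, and 0 fell. The change was positive for 12 of the 14 (median 0.19), against 47.3% of all probe sets. Mmp14, a membrane-bound matrix metalloproteinase, rose by 0.55 ± 0.13 log2 units (SE, limma adjusted p = 0.047), Ltbp1, which holds latent TGF-beta in the matrix, by 0.38 ± 0.09 (limma adjusted p = 0.046) and the urokinase Plau by 0.29 ± 0.04 (limma adjusted p = 0.0035). The list mean was 7.50 to 7.74 in A-CRF and 7.33 to 7.49 in Control, without overlap. The macrophage marker mean also separated all 8 A-CRF arrays from the controls, and its part in these values was not tested. Plau passed in each fit without 1 array. Mmp14 passed only without A-CRF 4, 6, 7 or 8, and Ltbp1 only without A-CRF 1, A-CRF 7 or Control 1 (limma, highest adjusted p = 0.11 and 0.10). Of the 2 probe sets of Mmp14, the brighter matches several transcripts. With such sets left out the change of Mmp14 was 0.36 ± 0.10 (SE, limma adjusted p = 0.080). With the clock gene, endothelial or fat marker covariate, 1 of the 14 passed, Plau. The change of Ltbp1 was then 0.33, 0.45 and 0.35, and that of Mmp14 0.32, 0.46 and 0.49.

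Klf9 had values of 9.37 at the lowest, 9.79 at the median and 10.21 at the highest in A-CRF and 9.40, 9.69 and 10.02 in Control. Arrays of each group fell into a high and a low set. In A-CRF, arrays 2, 6, 7 and 8 were at 9.91 to 10.21 and the others at 9.37 to 9.67, and in Control, arrays 2, 3 and 4 were at 9.93 to 10.02 and the others at 9.40 to 9.45. The group difference was 0.08 ± 0.15 (SE, 95% interval -0.25 to 0.41, limma adjusted p = 0.91). Of 3 probe sets of Klf9, 2 had the same sign. Only 1 had a mean more than 1 log2 unit over the table's minimum. The dimmer sets had r = 0.65 and 0.22 with the brightest, over deviations from the group means.

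Klf15, a regulator of amino acid and glucose use that also restrains smooth muscle and cardiac growth, was at 7.63, 8.15 and 8.73 in A-CRF (lowest, median, highest) and at 8.15, 8.39 and 8.77 in Control. A-CRF 6, 7 and 8 were at 8.55, 8.73 and 8.69, inside the control range, and the other 5 at 7.63 to 8.15, below every control. The difference was -0.23 ± 0.18 (SE, 95% interval -0.61 to 0.15, limma adjusted p = 0.65). Of 3 probe sets of Klf15, 2 had the same sign. Only 1 had a mean more than 1 log2 unit over the table's minimum. The dimmer sets had r = 0.87 and -0.06 with the brightest, over deviations from the group means.

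The same arrays, A-CRF 6, 7 and 8, held the highest A-CRF values of Klf9 and of Klf15. They were also the A-CRF arrays whose clock gene score was above 0, at 0.73, 0.95 and 1.60, against -2.65 to -1.13 on the other A-CRF arrays. A-CRF 2, with a score of -1.13, had a Klf9 value of 9.91, close to the 9.92 of A-CRF 6. The score is the mean z value of 7 genes (Dbp, Per1, Per2, Per3, Nr1d1, Nr1d2 and Tef) minus that of 3 (Bmal1, Npas2 and Clock). In Control it was -0.61 and -0.11 on Control 1 and Control 6 and 0.98 to 1.98 on the others. With this score as a covariate the change of Klf15 was 0.07 ± 0.14 (SE, limma adjusted p = 0.90) and that of Klf9 0.36 ± 0.11 (limma adjusted p = 0.24). Neither passed, and the sign of Klf15 turned. Whether the samples were taken at different times of day was not tested. Of 16 measured clock genes, Npas2, a partner of Bmal1, rose by 0.78 ± 0.18 (limma adjusted p = 0.041), the repressor Cry1 fell by 0.86 ± 0.06 (limma adjusted p = 3.3e-05) and 14 did not pass (median -0.07). Beside these, 1.26% of all probe sets were higher and 0.789% lower. Npas2 missed the threshold without A-CRF 2, 3, 4 or 5 or any control but Control 1 (limma, highest adjusted p = 0.089), and Cry1 in none of these fits. With the clock gene score itself as a covariate, or with the endothelial, fat or immediate early mean, only Cry1 passed. The change of Npas2 was then 0.43, 0.71, 0.73 and 0.91, and Npas2 is itself part of the clock gene score.

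**Figure D3:**
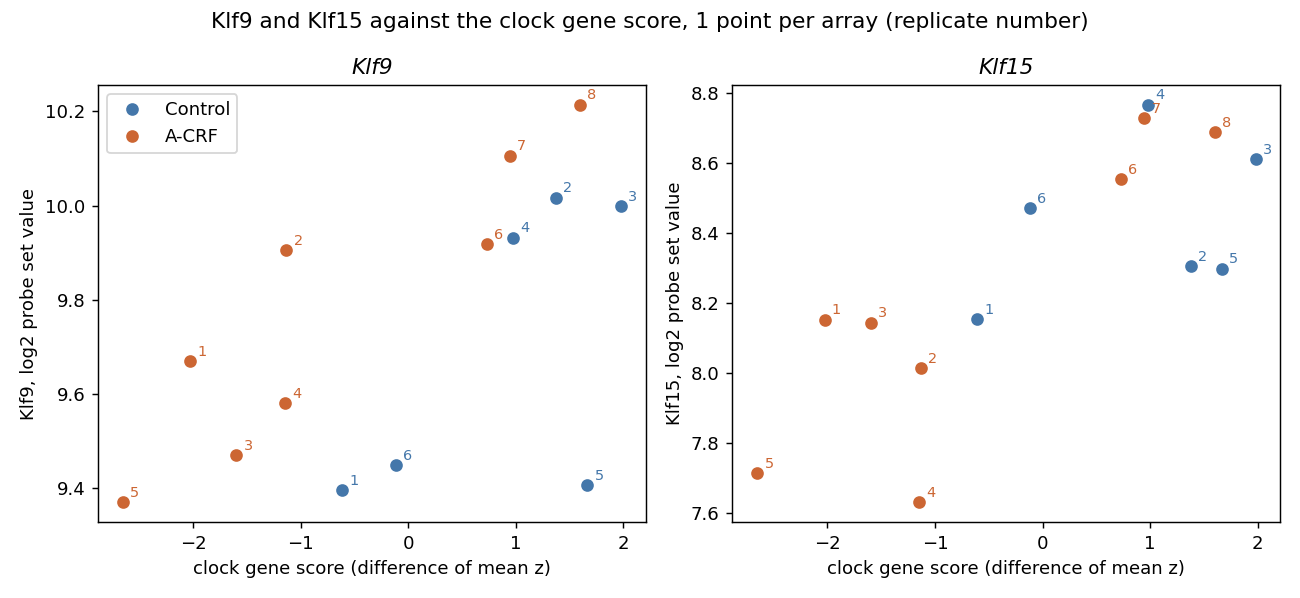
Log2 probe set values of Klf9 and Klf15 against the clock gene score (a difference of mean z values), 1 point per array labelled with its replicate number. A-CRF 6, 7 and 8 lie at the upper right of the A-CRF points in both panels. A-CRF 2, with a score of -1.13, has a Klf9 value of 9.91, close to that of A-CRF 6, and Control 5, with a score of 1.67, has 9.41.

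Other glucocorticoid response genes did not pass: of 13 measured, 0 passed (median 0.01). An unadjusted p under 0.05 in limma was seen for 4 of the 13, against 14.4% of all probe sets. The metallothionein Mt2A changed by 0.73 ± 0.26 (SE, limma adjusted p = 0.18), Tsc22d3, which encodes the glucocorticoid-induced leucine zipper, by -0.48 ± 0.20 (limma adjusted p = 0.28) and Fkbp5, a co-chaperone of the receptor, by -0.12 ± 0.25. Of 11 metabolic genes linked to Klf15, 0 passed and 2 had an unadjusted p under 0.05 in limma, against the same 14.4%. The change was negative for 10 of the 11 (median -0.13), where it was positive for 47.3% of all probe sets. Slc2a4, the insulin-responsive glucose transporter, changed by -0.62 ± 0.18 (limma adjusted p = 0.094), Slc25a20, the carnitine carrier, by -0.19 ± 0.11 and Bcat2, a branched-chain aminotransferase, by -0.07 ± 0.08 (limma adjusted p = 0.80). Slc2a4 is also a gene of fat cells, and the white adipocyte marker mean was 6.77 to 8.12 in A-CRF and 7.45 to 8.16 in Control. With that mean as a covariate the change of Slc2a4 was -0.59 ± 0.18 (limma adjusted p = 0.14). The brown adipocyte mean was 8.04 on A-CRF 1, where Slc2a4 was 7.23. It was 6.18 to 6.43 on A-CRF 2, 3, 4 and 5, where Slc2a4 was 6.12 to 6.42. Control 2, with a brown adipocyte mean of 6.82, had a Slc2a4 value of 7.09. No fit took the brown adipocyte mean as a covariate, and its part in Slc2a4 was not tested.

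Of the wider family, 11 of 17 listed Kruppel-like and Sp factors were measured and 0 passed (median -0.0095). An unadjusted p under 0.05 in limma was seen for 3 of the 11, against 14.4% of all probe sets. Klf11, a close relative of Klf10 that TGF-beta also induces, changed by 0.21 ± 0.07 (SE, limma adjusted p = 0.18) with 5 of 8 A-CRF arrays above every control. Klf7 changed by -0.20 ± 0.08 (limma adjusted p = 0.23). Of 16 immediate early genes, which respond quickly like several of these factors, Egr1 rose, against 1.26% of all probe sets higher, and 15 did not pass (median 0.20). Their mean was highest on A-CRF 3 (7.39), A-CRF 4 (7.02), A-CRF 7 (6.97) and Control 3 (7.04), the arrays with the highest Klf2, and was 6.34 to 6.67 on all others.

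Within A-CRF, Klf6 and Klf10 ran in opposite directions. A-CRF 5 had the lowest Klf6 (8.24) and the highest Klf10 (7.66), and A-CRF 7 the highest Klf6 (9.35) and the lowest Klf10 (6.87). Over the 8 arrays r was -0.95 (exact permutation p = 4.7e-04, adjusted p = 0.020 over 42 relations, 21 gene pairs in each group) and rho -0.90 (exact permutation p = 0.0046, adjusted p = 0.096). Without the arrays farthest from the median Klf6 value, r was -0.91. In Control r was -0.89 (exact permutation p = 0.021, adjusted p = 0.15) and -0.03 without the farthest arrays, so that relation rests on them, Control 3 among them. Klf2 and Klf6 had r = 0.83 in A-CRF (exact permutation p = 0.016, adjusted p = 0.14, and rho = 0.90, exact permutation p = 0.0046, adjusted p = 0.096), and r was 0.68 without the farthest arrays. By rho, 0 of the 42 relations had an adjusted p under 0.05. Relations of Klf4, Klf9 and Klf15 in A-CRF, and of Klf9 in Control, were not read, since the arrays fell into separate sets. In values, A-CRF 1, 3, 4 and 5, the set with high Klf4, was the set with low Klf9.

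**Figure D4:**
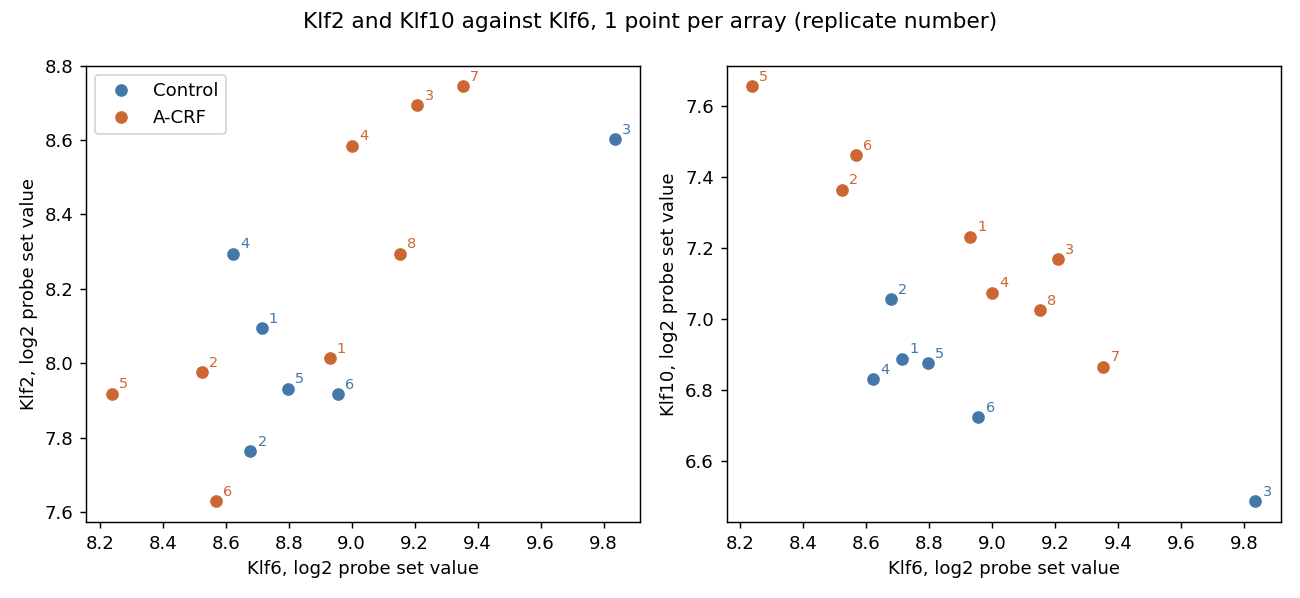
Log2 probe set values of Klf2 (left) and Klf10 (right) against Klf6, 1 point per array labelled with its replicate number. In A-CRF Klf10 declines from 7.66 to 6.87 as Klf6 climbs from 8.24 to 9.35, and Control 3 stands alone at a Klf6 value of 9.84.

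The genes most like each member were sought among 9311 named genes with a mean above the median, by Pearson's r of deviations from the group means over the 14 arrays, as a description. For Klf9 they were the clock repressors Nr1d1 (r = 0.84, rho = 0.82) and Nr1d2 (r = 0.82, rho = 0.83), which are also in the clock gene score. For Klf15 they were B3galnt1, a glycosyltransferase (r = 0.95, rho = 0.96), and the sulfotransferase Sult1a1 (r = 0.91, rho = 0.94). For Klf6 they were Ptgs2, the inducible cyclooxygenase (r = 0.92, rho = 0.93), and Ankh, a pyrophosphate transporter (r = 0.91, rho = 0.82). Without the arrays farthest from the median of Klf6, r was 0.82 for Ptgs2 and 0.79 for Ankh. For Klf2 they were Eaf1 (r = 0.94), a transcription elongation factor, and the mitochondrial carrier Slc25a25 (r = 0.90), and for Klf10 Rassf7 (r = 0.92) and Tmem239 (r = 0.87). For Klf4 they were Plxna2 (r = 0.85) and Srrd (r = 0.85), and for Klf5, which was near the lowest signal, Dhx36 (r = 0.88) and Hrh1 (r = 0.83). Plxna2, Srrd, Rassf7 and Tmem239 were themselves dim, with control means of 5.76, 5.69, 5.76 and 5.65. Those means lie within 1 log2 unit of the table's minimum. The arrays share a platform and a summary method, and the highest of many correlations is high by selection.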

How the data were processed

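Per the labels' protocols, aortas were kept in RNAlater and frozen, and total RNA was isolated with a kit for fibrous tissue and labelled by an oligo-dT primed reaction for a 1-colour Affymetrix rat array. The values deposited by the authors are log2 probe set summaries by range, and the submitters' processing notes name PLIER without a version. Nothing used here states the background correction, normalization or offset. An offset would compress changes of dim genes such as Klf5. Of 31099 probe sets, 57 manufacturer's controls were left out. Names came from the platform annotation, which pairs 20826 probe sets with 1 symbol, 436 with several and 9780 with none. Entrez identifiers matched RefSeq for 20758, and 0 symbols changed. The groups were compared with limma 3.58.1 (R 4.3.3), group as the only factor, two-sided, adjusted by Benjamini-Hochberg over 31042 probe sets. The fit was tested on simulated data. Single values were also tested by exact permutation over 3003 regroupings. Pairs of members were correlated within each group, with exact permutation. Alternatives varied the scaling, offset, filters, probe set choice, covariates and arrays. Arrays have no sequencing depth, and their number limits precision. The members, the 11 pathway lists, the 10 marker lists, the naming rule (up to 3 called genes per list with the largest change, otherwise the 2 largest changes, 8 fixed genes, and 2 most similar genes per member) and the motifs were chosen with earlier results of these data known.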

Additional observations from a re-analysis of the deposited data

Results flagged for a closer look

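Over 94 groups of arrays, each named gene in A-CRF and in Control, Dixon's test at its 95% level gave 9 flags, each 1 gene on 1 array, where chance gives about 1 in 20 groups (5%). Of these 9 flags, 5 were on Control 3. On Control 3 Klf6 was 9.84, with the next control at 8.96. Ptgs2 was 9.91 there against 8.29 for the next, Vcam1 9.53 against 8.999, Ankh 6.74 against 6.52 and Ptgds 6.63 against 5.37. Ptgs2 and Ankh had been selected as most like Klf6, so these flags are not independent of it. Control 3 also had the highest control mean of immediate early genes, 7.04 against at most 6.48. The part of sample handling in these values was not tested. Among the other arrays, Actg2 was 10.67 on Control 1, with the next at 9.89, and Slc25a20 was 6.91 on Control 6, with the next at 6.48. In A-CRF, Nos3 was 5.90 on A-CRF 1 against 5.63 for the next, and Ptgds 5.33 on A-CRF 7 against 5.27. Both Ptgds and Nos3 are dim, near the table's minimum. Of the flagged arrays, Control 1 and A-CRF 1 also had a high GAPDH 3' minus 5' difference, at 1.58 and 1.90. Control 3, Control 6 and A-CRF 7 did not. The part of transcript shortening in these flags was not tested.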

How the results depend on the processing

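No paired analysis was possible because the labels give no replicate numbers shared between groups. In 12 of 14 other limma settings 0 members passed. Klf10 alone passed, 1 of 7, with array weights (0.48) and with the immediate early covariate (0.56), which was chosen after seeing the data. Without 1 array it was 0.36 to 0.47 and 0 to 1 members passed. Klf6 ranged from -0.13 to 0.12, turning sign without A-CRF 5 or Control 3, and Fkbp5 from -0.27 to 0.012, turning without Control 3. Signs also turned for Mef2c (0.022) and Myocd (0.027) with array weights, and for Klf5 with the mean of probe sets (0.024). They turned with the clock covariate for Klf6 (0.15), Klf15 (0.070), Mef2c (0.041) and Fkbp5 (0.070), and with the endothelial covariate for Klf2 (-0.034), Klf5 (0.0012), Mef2c (0.020) and Acta2 (0.055). With the immediate early covariate they turned for Klf2 (-0.18), Klf4 (-0.0014), Klf5 (0.0028) and Acta2 (0.036), and without the arrays of high GAPDH difference for Acta2 (0.016). Probe sets past the threshold numbered 636, against 1457 with array weights, 1041 with the GAPDH covariate, 66 with the clock, 165 with the endothelial and 175 with the immediate early covariate, and 307 to 979 without 1 array.

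Moves of list counts included the following. Smooth muscle genes were 1 with quantile normalization, trend and robust eBayes, the mean of probe sets and without probe sets of several transcripts. They were 3 with dim probe sets left out and with array weights. The count was 4 with the GAPDH covariate and 0 with the clock, endothelial and immediate early covariates. Klf5-linked genes were 0 with these last 3. TGF-beta genes were 1 with the offset and the fat, clock and endothelial covariates, and 5 with array weights and without arrays of high GAPDH difference. They were 4 with quantile normalization, dim probe sets left out, and trend and robust eBayes, and 2 with the mean of probe sets. Clock genes were 1 with the fat, clock, endothelial and immediate early covariates, and 3 with dim probe sets left out and the mean of probe sets. Immediate early genes were 2 with dim probe sets left out and array weights, and 0 with the fat, clock, endothelial and immediate early covariates and without arrays of high GAPDH difference. Glucocorticoid genes were 1 with dim probe sets left out, trend and robust eBayes, and array weights. Klf15-linked genes were 1 with array weights and the GAPDH covariate, and other family members and ERK5 regulators 1 with array weights. Without 1 array the counts were 0 to 2 (smooth muscle), 1 to 3 (Klf5-linked), 1 to 3 (TGF-beta), 1 to 4 (clock), 0 to 3 (immediate early), and 0 to 1 (glucocorticoid, Klf15-linked and ERK5). The cause was not tested. Klf5 has no value with dim probe sets left out, and its signal limits what could be seen.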
